A study of Homo sapiens with 6 samples.

Results

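The annexins are a family of calcium-dependent, phospholipid-binding proteins, and 9 of 10 annexin genes chosen by name (ANXA1 to ANXA8, ANXA11 and ANXA13) were read from 6 RNA-seq libraries of a liver cancer line. The 9 genes are ANXA1, ANXA2, ANXA3, ANXA4, ANXA5, ANXA6, ANXA7, ANXA8 and ANXA11, out of 24432 gene symbols in the files, and ANXA13 is not analysed here. They were picked with the difference between the groups already known, so their values in that comparison are a description and support nothing. The labels name the line PLC/PRF/5, which was established from a human hepatocellular carcinoma. Each group had 3 libraries. The sensitive cells were the untreated control, with the genotype given as WT. The resistant cells were the same line by label, grown under lenvatinib, an inhibitor of VEGF and FGF receptors and other kinases, with a first dose of 20 µmol/L, steps given as 0.5 mmol/L and an end dose given as 40 mmol/L. The units of those doses do not match each other. All cells were grown in DMEM with serum. Lenvatinib was labelled for the resistant group alone, so exposure to the drug and resistance cannot be told apart. The labels do not say whether the replicates were separate cultures or whether the resistant cells were a single clone, so the spread between libraries may be technical.

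An annexin has a conserved core of repeats that binds acidic phospholipids such as phosphatidylserine when calcium rises, and a variable N-terminal tail that sets its partners. Several tails bind S100 proteins, small EF-hand calcium sensors, and the resulting complexes link membranes to each other or to actin. Annexins take part in membrane repair, endocytosis, exocytosis, surface plasmin formation and, through secreted ANXA1, the dampening of inflammation. In liver, ANXA4, ANXA5 and ANXA6 are well known members, and ANXA2 and ANXA3 have been studied widely in liver cancer.

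Sequences upstream of the start sites are shown for ANXA1, ANXA2 and ANXA3, since ANXA1 and ANXA3 had the largest changes on the log2(FPKM + 1) scale among the 9 genes and ANXA2 the highest level. Each is the 250 bases before a start site in RefSeq (GRCh38.p14), 5′ to 3′ on the strand of the gene, with capitals for matches to the core promoter motif TATAAA or to the AP-1 motif, spelled TGANTCA.
ANXA1, chr9:73151615-73151864, plus strand: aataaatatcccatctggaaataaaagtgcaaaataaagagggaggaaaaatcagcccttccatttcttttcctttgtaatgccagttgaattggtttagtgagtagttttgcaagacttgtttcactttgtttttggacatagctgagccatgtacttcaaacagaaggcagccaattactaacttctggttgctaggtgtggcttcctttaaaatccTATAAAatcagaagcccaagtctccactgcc
ANXA2, chr15:60397987-60398236, minus strand: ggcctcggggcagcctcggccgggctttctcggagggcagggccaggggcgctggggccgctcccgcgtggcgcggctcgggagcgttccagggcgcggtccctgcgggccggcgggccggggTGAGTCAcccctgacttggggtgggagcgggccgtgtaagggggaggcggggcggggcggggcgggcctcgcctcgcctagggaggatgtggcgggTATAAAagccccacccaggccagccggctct
ANXA3, chr4:78551520-78551769, plus strand: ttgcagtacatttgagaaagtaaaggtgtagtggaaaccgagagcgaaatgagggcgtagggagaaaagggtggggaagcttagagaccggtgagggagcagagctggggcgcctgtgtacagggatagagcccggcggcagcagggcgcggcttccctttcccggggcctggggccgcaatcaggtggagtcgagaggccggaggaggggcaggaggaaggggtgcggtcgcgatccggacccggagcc
These 3 stretches were unlike in base composition. ANXA1's was 38.4% G or C with 0 CpG pairs, ANXA2's was 78% with 28 and ANXA3's was 64% with 18, against a median of 58% and 11 CpG pairs over 35114 RefSeq promoter windows of the same length. A match to TATAAA began 31 bases before the start site in both ANXA1 and ANXA2, and 10.7% of all windows hold that motif on either strand. ANXA2 also held TGAGTCA, beginning 127 bases before its start, a match to TGANTCA, which 6.57% of all windows hold. The table had 12 windows for 8 of the 9 genes (none for ANXA8). The other windows of the family held no match to TGANTCA, and 1 more match to TATAAA stood before 1 of 3 ANXA11 start sites. The TEAD motif GGAATG, held by 11.9% of all windows, matched in none of the 12. GC boxes (GGGCGG, in 42.6% of all windows) and E-boxes (CACGTG, in 6.35%) were also searched, all 5 motifs on both strands. ANXA2 held 3 GC boxes, and windows of ANXA4, ANXA5, ANXA6, ANXA7 and ANXA11 held GC boxes too. ANXA4 and ANXA6 each held 1 E-box, and ANXA1 and ANXA3 held neither motif. A match is a description of the letters.

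Whole-library facts bear on every value that follows. Values are FPKM, fragments scaled to transcript length and to library depth, so that levels of different genes can be compared per length. The spacing of low values put the depth of the 6 libraries within 3.46% of each other. Across 11694 tested genes, log2(FPKM + 1) correlated at Pearson's r of 0.994 to 0.996 among resistant libraries, at 0.952 to 0.995 among sensitive ones (sensitive replicate 3 was the distant one) and at 0.68 to 0.706 between the groups, where genes are not independent replicates. The labelled cell type was checked against 12 hepatocyte markers. Their summed level was 3340 to 3460 FPKM in the sensitive and 11.9 to 30.1 FPKM in the resistant libraries, in which 8 of the 12, among them ALB, AFP and HNF4A, were under 1 FPKM in every library. Most of the sensitive sum was SERPINA1, at 2089 to 2401 FPKM. ALB and AFP were low in sensitive libraries too, at 2.01 to 4.02 and 1.04 to 1.59 FPKM, and TTR, another of the 8, was under 1 FPKM in all 6 libraries. Of 7 fibroblast, 5 endothelial and 7 leukocyte markers in the files, 6, 5 and 5 were under 1 FPKM in all 6 libraries, and PTPRC, the general leukocyte marker, was listed at 0 in each. The leukocyte sum of 249.7 to 268 FPKM in sensitive libraries, against 2.86 to 5.57 FPKM in resistant ones, was mostly LYZ. Of 6 cholangiocyte markers, the summed level was 29.4 to 35.1 FPKM in sensitive and 119 to 136 FPKM in resistant libraries, most of the latter from KRT7. SOX9 was also higher, at 11.2 to 11.9 against 1.84 to 4.38 FPKM, but EPCAM was lower, at 10.7 to 11.7 against 25.7 to 29.997 FPKM, as was SPP1, and KRT19 and CFTR were under 1 FPKM in all 6 libraries. Whether the resistant libraries come from the labelled line was not tested, so in these values a difference of line cannot be told apart from resistance. The part of the lower hepatocyte markers in the annexin values was not tested.

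Resistant libraries held more annexin mRNA, and a different mix of it. The 9 annexins summed to 462, 486 and 514 FPKM in sensitive replicates 1, 2 and 3 and to 1075, 1037 and 968 FPKM in resistant replicates 1, 2 and 3. Every resistant sum stood above every sensitive one, with means of 487 ± 25.7 and 1026 ± 53.9 FPKM (SD, n = 3 here and below). In bulk RNA, a change in the number of cells that carry a transcript and a change in the amount per cell cannot be told apart. ANXA2 and ANXA5 made up 76.6% ± 0.288 of the annexin FPKM in sensitive cells and 53.8% ± 0.991 in resistant cells. ANXA1 and ANXA3 together went from 1.83% ± 0.124 to 37.8% ± 0.892 of it.

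**Figure D1:**
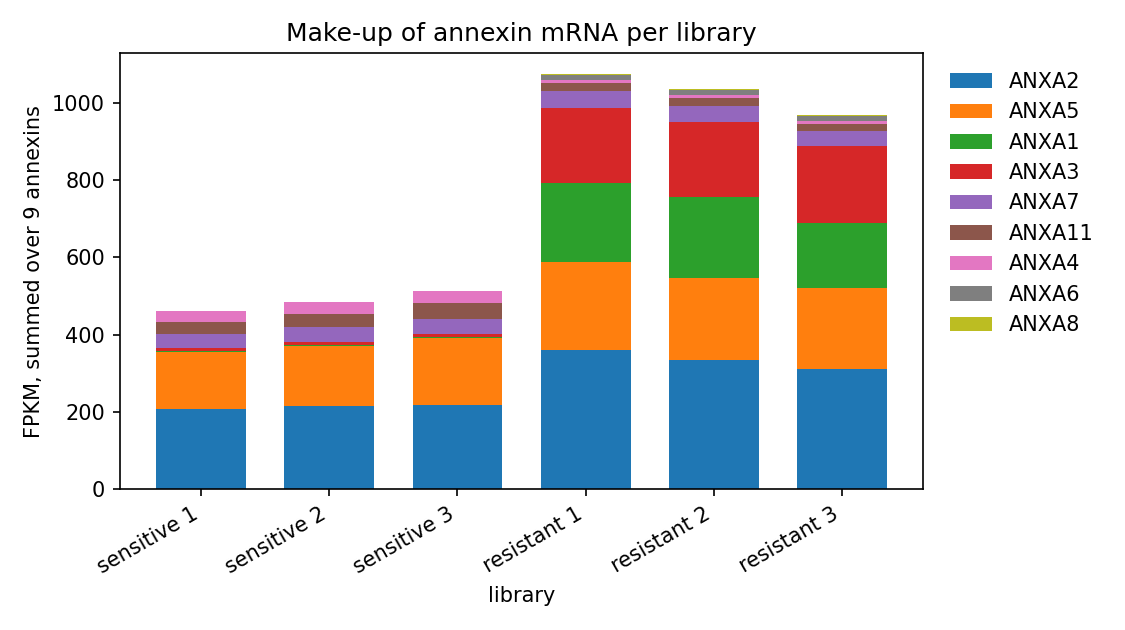
Summed FPKM of the 9 annexins in each library (vertical axis, linear, from 0), stacked by gene, for sensitive replicates 1 to 3 and resistant replicates 1 to 3. The resistant bars reach 968 to 1075 FPKM against 462 to 514, and the ANXA1 and ANXA3 blocks, barely visible in the sensitive bars, make up 37.8% of the resistant ones on average.

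In a fit of all genes with limma, at a Benjamini-Hochberg adjusted p under 0.05, 67.7% of the 11694 tested genes differed between the groups, 35.2% higher and 32.5% lower in resistant cells. Of the 9 annexins, 8 passed, 6 higher (ANXA1, ANXA2, ANXA3, ANXA5, ANXA6 and ANXA8) and 2 lower (ANXA4 and ANXA11), and ANXA7 did not pass. The groups did not overlap for those 8 annexins, as for 74.4% of all tested genes. The median log2 fold change was 0.64 over the annexins and 0.08 over all tested genes, and the median size without its sign was 1.38 and 0.75. Nothing is read from these counts, since the family was chosen with the comparison known. In a test against a change of 1.5-fold, 5 annexins passed (ANXA1, ANXA3, ANXA4, ANXA6 and ANXA8), and 37.3% of all genes. The same number were called with at least a 2-fold difference on the log2 scale, against 38.2% of all genes. All fold changes are resistant minus sensitive on the log2(FPKM + 1) scale, which understates low genes, with the standard error (SE) of limma.

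**Figure D2:**
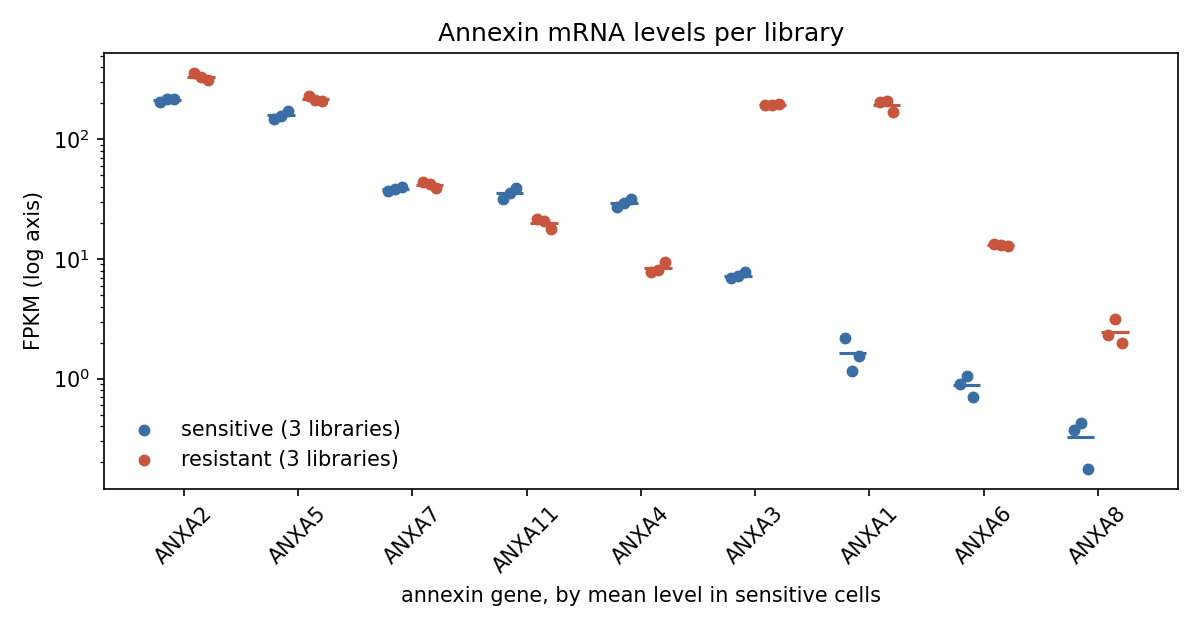
FPKM of each annexin in every library (vertical axis, logarithmic; genes along the horizontal axis by mean sensitive level), with blue points for sensitive and red for resistant libraries and short lines at the group means. ANXA1, ANXA3 and ANXA6 show the widest gaps, the ANXA7 points overlap, and ANXA4 and ANXA11 are the genes whose resistant points lie lower.

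ANXA1, whose secreted form acts on formyl peptide receptors and whose tail binds S100A11, had the largest rise of the 9 genes. Sensitive replicates 1, 2 and 3 held 2.20, 1.16 and 1.54 FPKM, and resistant replicates 1, 2 and 3 held 204, 208 and 169 FPKM. The sensitive libraries were all close to the filter of 1 FPKM and the resistant ones far above it, with replicate 3 the lowest of the resistant group. The means were 1.63 ± 0.529 and 194 ± 21.6 FPKM, a ratio of 119 and a log2 fold change of 6.22 (SE 0.173), the 58th largest of all tested genes by size. In whole steps of its low values, this corresponded to 145, 77 and 99 reads or fragments in the sensitive and 13301, 13587 and 11059 in the resistant libraries.

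ANXA3, a short-tailed annexin best known from neutrophils, had the next largest rise. The sensitive libraries read 6.87, 7.17 and 7.77 FPKM and the resistant ones 193, 194 and 197 FPKM, in the order of replicates 1, 2 and 3. The groups were far apart, and the resistant libraries had a coefficient of variation of 0.976%, the lowest of the 9 genes. The ratio of the means was 26.8 and the log2 fold change 4.57 (SE 0.0926). ANXA1 and ANXA3 were thus at nearly the same level in resistant cells, 194 ± 21.6 and 195 ± 1.90 FPKM, and did not differ there beyond their spread, while in sensitive cells ANXA3 was the higher in each library.

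ANXA6, which carries a duplicated annexin core and acts at endosomes and as a scaffold for regulators of RAS and protein kinase C, rose from near the filter. It stood at 0.896, 1.04 and 0.704 FPKM in the sensitive and at 13.3, 13.1 and 12.8 FPKM in the resistant libraries, in replicate order. Only sensitive replicate 2 reached 1 FPKM, so ANXA6 passed the filter mainly through the resistant group. The ratio of the means was 14.8 and the log2 fold change 2.91 (SE 0.119), from 83 to 127 reads or fragments in sensitive and 1532 to 1588 in resistant libraries. Its coding sequence in GENCODE release 29 is 2019 bases long, against 960 to 1515 bases for the other 8.

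ANXA2 was the most abundant annexin in both groups. Paired with S100A10, it binds membranes and actin and, at the cell surface, plasminogen and its activator. Sensitive libraries held 207, 216 and 218 FPKM and resistant ones 360, 335 and 311 FPKM, in replicate order. The lowest resistant library was well above the highest sensitive one, but the ratio of the means was only 1.57 (log2 fold change 0.64, SE 0.0955). ANXA5, the phosphatidylserine binder used as a stain for dying cells, was the next most abundant in both groups, at 148, 155 and 174 FPKM in sensitive and 228, 212 and 210 FPKM in resistant replicates 1, 2 and 3. Its groups did not overlap either, with a ratio of 1.36 (log2 fold change 0.45, SE 0.101), the smallest difference among the annexins that passed. In the test against a 1.5-fold change, ANXA2 and ANXA5 did not pass.

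ANXA4, an annexin of secretory epithelia that associates with the apical membrane, had the larger of the 2 falls. Sensitive libraries held 27.4, 29.6 and 31.8 FPKM and resistant ones 7.72, 8.12 and 9.37 FPKM, in replicate order. The highest resistant library lay well below the lowest sensitive one. The sensitive mean was 3.53 times the resistant one (log2 fold change -1.71, SE 0.119). AAK1, a kinase gene on the opposite strand that overlaps ANXA4 in GENCODE release 29, was at 1.86 FPKM in sensitive and 3.12 FPKM in resistant cells on average. Whether the counting used strand is not given in the sources used here.

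ANXA7 and ANXA11 have long tails of low sequence complexity and share the EF-hand partners PDCD6 and sorcin. ANXA7, known for granule fusion, stood at 37.1, 38.8 and 39.9 FPKM in sensitive and 43.7, 42.5 and 39.6 FPKM in resistant replicates 1, 2 and 3. Its groups overlapped, and its log2 fold change was 0.12 (SE 0.0942), the smallest of the 9 genes. ANXA11, which tethers RNA granules to lysosomes, stood at 31.9, 35.6 and 39.5 FPKM in sensitive and 21.5, 20.6 and 17.8 FPKM in resistant replicates 1, 2 and 3. Each resistant library was lower than each sensitive one, with a sensitive mean 1.79 times the resistant one (log2 fold change -0.81, SE 0.126), and it did not pass against a 1.5-fold change. The ratio of ANXA11 to ANXA7, per length, was 0.859, 0.917 and 0.99 in sensitive and 0.491, 0.484 and 0.451 in resistant replicates 1, 2 and 3. These transcripts were near equal in sensitive libraries and further apart in the resistant ones.

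ANXA8, an annexin of stratified epithelia and late endosomes, was the least abundant of the 9. It stood at 0.369, 0.428 and 0.176 FPKM in sensitive and 2.30, 3.14 and 1.98 FPKM in resistant replicates 1, 2 and 3, with a log2 fold change of 1.38 (SE 0.147). It was under 1 FPKM in all sensitive libraries and so entered the test only through the resistant ones, which fixed its direction; the same holds for each gene below that is said to be under 1 FPKM in all libraries of a group. These levels stood for 58, 68 and 27 reads or fragments in the sensitive and 357, 489 and 310 in the resistant libraries. Its value is uncertain, because its copy ANXA8L1 has a coding sequence identical at 1090 of 1095 bases (99.5%), and 73.8% of 100-base windows of the ANXA8 coding sequence occur unchanged in that copy. ANXA8L1 stood at 0.0249, 0.0493 and 0.14 FPKM in sensitive and 2.50, 3.05 and 1.57 FPKM in resistant replicates 1, 2 and 3. The sensitive values stood for 2, 4 and 11 reads or fragments. Added together, the copies were at 0.394, 0.478 and 0.316 FPKM in sensitive and 4.80, 6.19 and 3.55 FPKM in resistant replicates 1, 2 and 3. How the counting treated reads that match both copies was not tested. The other annexins are far less alike. Over 36 pairs of the 9, aligned coding bases were identical at 60.3% to 65.9%, with ANXA4 and ANXA6 the closest pair.

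The order of levels changed between the groups. In sensitive cells it ran ANXA2, ANXA5, ANXA7, ANXA11, ANXA4, ANXA3, ANXA1, ANXA6 and ANXA8, and of these neighbours ANXA7 and ANXA11 had overlapping libraries while the others did not. In resistant cells it ran ANXA2, ANXA5, ANXA3, ANXA1, ANXA7, ANXA11, ANXA6, ANXA4 and ANXA8, and of these neighbours ANXA3 and ANXA1 overlapped. By mean FPKM over all symbols, ANXA1 stood at place 9778 in sensitive and place 284 in resistant cells, and ANXA3 at 5823 and 281. ANXA2 stood at 269 and 149.

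Besides ANXA8L1, the annexin genes ANXA9 and ANXA10 were also in the files. ANXA9, whose calcium-binding sites are degenerate, stood at 24.2, 25.5 and 25.6 FPKM in sensitive and 0.0257, 0.23 and 0.191 FPKM in resistant replicates 1, 2 and 3. The resistant values stood for 2, 18 and 15 reads or fragments, against 1908 to 2034 in sensitive libraries. It was lower in resistant cells (log2 fold change -4.51, SE 0.122), was under 1 FPKM in all resistant libraries, and had a larger fall than ANXA4 or ANXA11. ANXA10 was listed at 0 in all 6 libraries.

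Genes of annexin partners, of the processes annexins take part in and of C2-domain proteins were then counted in 6 lists. These were read against the 35.2% of all genes called higher and 32.5% called lower, and the all-gene median of 0.08. Of the S100 and other EF-hand partners together with the scaffold AHNAK, 6 of 10 tested rose and none fell, with a median log2 fold change of 0.59. S100A11, the partner of ANXA1, went from 1.08, 1.11 and 0.642 FPKM in sensitive to 1179, 1140 and 1377 FPKM in resistant replicates 1, 2 and 3. S100A6, which binds several annexins, went from 1.91 ± 0.545 to 2020 ± 176 FPKM. AHNAK, a giant protein that binds the complex of ANXA2 with S100A10, rose by 2.90 (SE 0.297, adjusted p = 0.000142 in limma), and sorcin (SRI) by 1.09. PDCD6 was at 80 ± 8.71 and 68.4 ± 6.51 FPKM and did not pass.

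S100A10, the partner of ANXA2, had a log2 fold change much smaller than that of S100A11, 9.31. It was named after its values were seen. It stood at 396, 451 and 431 FPKM in sensitive and 646, 564 and 481 FPKM in resistant replicates 1, 2 and 3 (log2 fold change 0.40, adjusted p = 0.0329 in limma). The call was not stable, and ended without sensitive replicate 1 or 2 or resistant replicate 1 or 2 (adjusted p from 0.0604 to 0.117), with a replicate block (0.0822), with scaling to the geometric mean sample (0.081) and with no filter (0.0641), and in the test against a 1.5-fold change. Per length, S100A10 stood at 1.91, 2.08 and 1.98 times ANXA2 in sensitive and 1.79, 1.68 and 1.55 times in resistant replicates 1, 2 and 3. S100A11 stood at 0.489, 0.958 and 0.417 times ANXA1 in sensitive and 5.77, 5.49 and 8.16 times in resistant replicates 1, 2 and 3. The ratio of S100A10 to ANXA2 thus ran from 1.91 to 2.08 in sensitive and from 1.55 to 1.79 in resistant libraries, without overlap. That of S100A11 to ANXA1 was at most 0.958 in each sensitive and at least 5.49 in each resistant library. Its sensitive values divide levels near the filter of 1 FPKM, 0.642 to 1.11 FPKM for S100A11 and 1.16 to 2.20 FPKM for ANXA1.

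**Figure D3:**
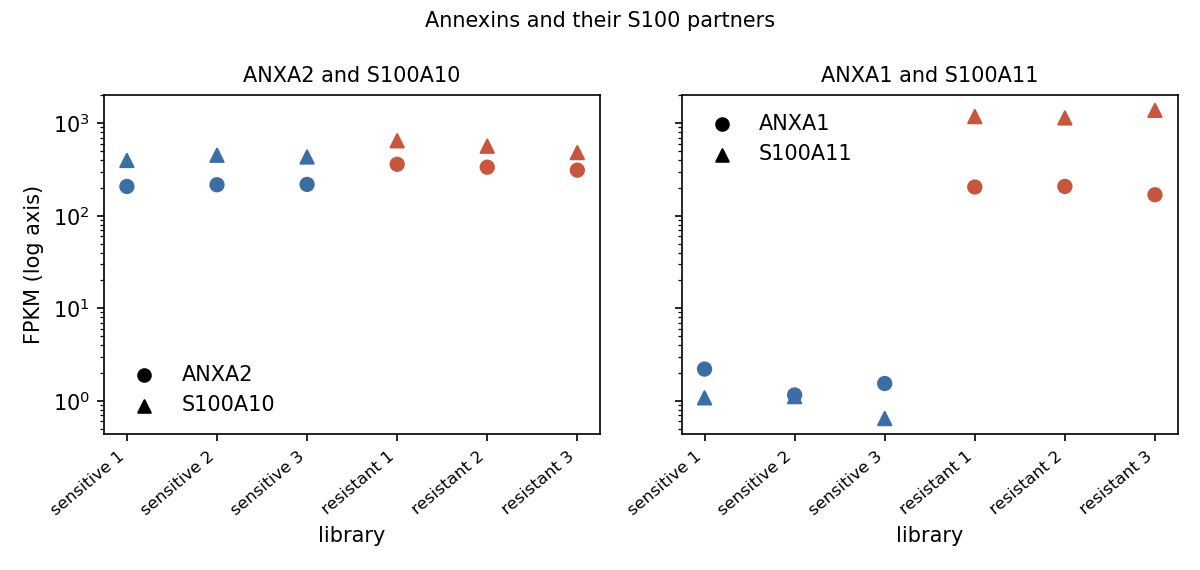
FPKM (vertical axis, logarithmic) in each of the 6 libraries of ANXA2 and S100A10 (left) and ANXA1 and S100A11 (right), with circles for the annexin, triangles for the S100 gene, blue for sensitive and red for resistant libraries. On the left all points lie between 207 and 646 FPKM, and on the right both genes move from at most 2.20 FPKM in sensitive to at least 169 FPKM in resistant libraries.

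Of the surface receptor, plasmin and coagulation genes, 2 of 5 tested rose, 1 fell and 2 did not pass, with a median of 0.21. PROCR, the endothelial protein C receptor, went from 0.297, 0.569 and 0.535 FPKM in sensitive to 29.5, 24.2 and 26.7 FPKM in resistant replicates 1, 2 and 3 (log2 fold change 4.24), and was under 1 FPKM in all sensitive libraries. PLGRKT, a plasminogen receptor, rose by 0.63, a call that ended under quantile normalization (adjusted p = 0.0613 in limma), without resistant replicate 3 (0.052) and in the test against a 1.5-fold change. ANXA2R, described as a receptor for ANXA2, fell by 0.86, and was under 1 FPKM in all resistant libraries. The formyl peptide receptors, through which ANXA1 acts, are not analysed here. With no filter on low values, 6 of 8 members of the list were called.

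Of the scramblases and flippases, which set whether phosphatidylserine is exposed outside or held inside the membrane, none of 9 tested rose, 4 fell and 5 did not pass, with a median of -0.04. The caspase-activated scramblase XKR8 fell from 6.75, 8.92 and 8.81 FPKM in sensitive to 1.19, 1.65 and 1.64 FPKM in resistant replicates 1, 2 and 3 (log2 fold change -1.87). TMEM30A, the subunit that flippases need to leave the endoplasmic reticulum, fell from 27.3 ± 6.36 to 10.6 ± 2.48 FPKM (-1.28), its relative TMEM30B fell by 1.91, and the flippase ATP8B1 fell by 1.80. TMEM30B was under 1 FPKM in all resistant libraries. The calcium-activated scramblase ANO6 was at 22.5 ± 7.02 and 32.1 ± 2.30 FPKM and did not pass. Without sensitive replicate 1 or sensitive replicate 3, 2 members of the list were called higher, against none with all 6 libraries.

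Of the plasma membrane repair genes, 12 of 21 tested rose, 5 fell and 4 did not pass, with a median of 1.06. The caveolar ATPase gene EHD2 went from 0.0144, 0.064 and 0.00736 FPKM in sensitive to 59.5, 55.2 and 56.6 FPKM in resistant replicates 1, 2 and 3 (log2 fold change 5.82), and was under 1 FPKM in all sensitive libraries. The ESCRT-III subunit CHMP4A rose from 0.765 ± 0.265 to 80.7 ± 4.61 FPKM (5.54), caveolin-1 (CAV1) by 4.91, and myoferlin (MYOF), a relative of dysferlin, from 4.30 ± 0.207 to 109 ± 5.65 FPKM (4.38). For CHMP4A only sensitive replicate 2 reached 1 FPKM in that group, so it passed the filter mainly through the resistant group. Dysferlin (DYSF), counted among the 12 that rose, was under 1 FPKM in all sensitive libraries. The SNARE gene SNAP23 fell by 1.31 and the acid sphingomyelinase gene SMPD1 fell by 2.52, both named after their values were seen. The count of falls dropped from 5 to 3 without resistant replicate 1, 2 or 3, and to 2 in the test against a 1.5-fold change.

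Of the phospholipase A2 genes, whose lipid product release annexins were first described as inhibiting, 2 of 7 tested rose, 4 fell and 1 did not pass, with a median of -0.91. PLA2G12B fell from 9.57 ± 0.454 to 0.0282 ± 0.0373 FPKM (log2 fold change -3.36), and was under 1 FPKM in all resistant libraries. PLAAT3 fell by 1.26, PLA2G6 fell by 1.13, and PLA2G4C, a cytosolic enzyme, rose by 1.15. Among sensitive libraries only replicate 3 reached 1 FPKM for PLA2G4C, which passed the filter mainly through the resistant group. Among resistant libraries only replicate 3 reached 1 FPKM for PLA2G6, which passed mainly through the sensitive group. In the test against a 1.5-fold change, 2 members of the list passed, both lower.

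Copines and other C2-domain proteins bind membranes in a calcium-dependent way without an annexin core, and 8 of 10 tested rose, none fell and 2 did not pass, with a median of 1.04. CPNE7 went from 0.105, 0.023 and 0.279 FPKM in sensitive to 18.3, 17.4 and 21.4 FPKM in resistant replicates 1, 2 and 3 (log2 fold change 4.14). SYTL1 rose by 2.28, CPNE2 by 1.95 and CPNE8 by 1.07. CPNE7 and SYTL1 were under 1 FPKM in all sensitive libraries. Under quantile normalization and without sensitive replicate 3, 9 members were higher and 1 was lower, and with no filter 8 of 22 were higher and 4 were lower. Scaling to the geometric mean sample and leaving out sensitive replicate 1 also gave 9 higher. The count of rises was 7 with the replicate block and without sensitive replicate 2 or resistant replicate 1 or 3. It was 6 without resistant replicate 2 and in the test against a 1.5-fold change.

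**Figure D4:**
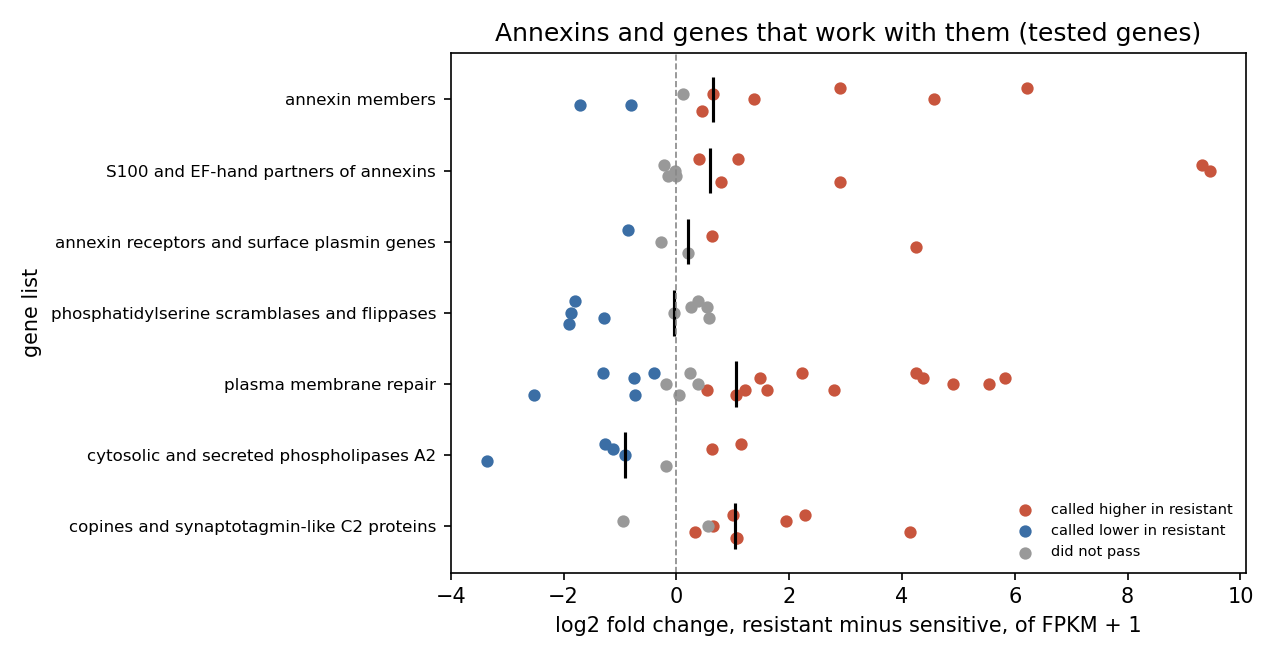
Log2 fold change of FPKM + 1, resistant minus sensitive (horizontal axis), of each tested gene in the annexin family and in 6 lists. The lists hold annexin partners, genes of processes annexins take part in, and C2-domain proteins. Each row is the family or a list, and vertical offsets only separate points. Red marks genes called higher, blue lower, grey those that did not pass, and black bars the medians. Annexins spread from -1.71 to 6.22, S100A11 and S100A6 lie farthest to the right, and no scramblase or flippase is called higher.

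Among the 5 genes whose profile over the 6 libraries lay closest to that of ANXA1, by the Euclidean distance between log2(FPKM + 1) values centred on each gene's mean, were TINAGL1, TRIML2, GPRC5A and CD44, at distances of 0.419 to 0.480. They were closest to ANXA1 in a measure that is mostly the difference between the groups. CD44, the hyaluronan receptor, stood at 0.275, 0.353 and 0.252 FPKM in sensitive and 105, 107 and 92.1 FPKM in resistant replicates 1, 2 and 3, and all 4 were under 1 FPKM in all sensitive libraries. For ANXA4 the closest were WFS1, MRPS34, SEC24C, ZDHHC12 and FAM162A, at distances of 0.121 to 0.154. MRPS34 and SEC24C stood well above ANXA4 in level, at 122 to 142 and 70.6 to 80.3 FPKM in sensitive and 40.6 to 44.6 and 22.3 to 26.4 FPKM in resistant libraries.

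Chromosomal neighbours of the annexins were described in the same way. Taking the nearest tested gene on each side in RefSeq order (GRCh38.p14), with 0 to 31 untested genes or annexins between, 18 neighbours were found, of which 4 rose, 5 fell and 9 did not pass, against 35.2% higher and 32.5% lower among all tested genes. Around the 8 annexins that passed, 5 of 16 neighbours were called the same way as their annexin and 3 the opposite way, and 1 of the 5 was ANXA8L1. ALDH1A1, the aldehyde dehydrogenase gene before ANXA1, went from 282 ± 14.5 to 1.90 ± 1.37 FPKM (log2 fold change -6.71) where ANXA1 rose by 6.22. FRAS1, before ANXA3, fell by 2.09 where ANXA3 rose by 4.57. Both neighbours of ANXA6 rose, TNIP1 by 0.79 and CCDC69 by 0.72, and GMCL1, after ANXA4, fell by 1.71.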

How the data were processed

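RNA-seq was analysed for 3 sensitive and 3 resistant libraries, grouped and numbered by their titles. The authors deposited 1 table per library with FPKM per gene symbol, a unit inferred from the values (RPKM cannot be told from it). Per the submitters' processing notes, the tools were cutadapt, a read trimmer, and HISAT2, an aligner. For their versions, the counting program and its strand setting, the build and the annotation: not given in the sources used here. Values were tested with limma 3.58.1 in R 4.3.3 (limma-trend, two-sided) on log2(FPKM + 1), with 1 as the pseudocount. Genes needed 1 FPKM or more in 3 or more libraries. All 6 libraries entered 1 fit with no block, and genes were called at a Benjamini-Hochberg adjusted p under 0.05. The fit was tested on simulated data in which far fewer genes differed than in these libraries. ANXA13 is not analysed here. Members and lists were chosen with earlier results of these data known. Named are the 9 annexins and up to 4 called genes per list by size of change. S100A10, PDCD6, ANO6, DYSF, SNAP23 and SMPD1 were named outside this rule. Also named are the 5 genes closest in profile to the largest rise and fall (clone-named, noncoding and antisense genes left out), and the nearest tested neighbours. Of the genes closest in profile, 1 is not reported here. Reads were inferred from low values in whole steps, within 0.02. Python 3.11.15, pandas 2.3.3, Biopython 1.88 (coding alignments) and matplotlib 3.10.9 were used. No gene had the same nonzero value in any 2 libraries. Since the FPKM of 1 read differed between libraries, equal counts need not give equal values. Deviations are SD over 3 libraries. Alternatives were other normalizations, variance models, filters and a pseudocount of 0.1, a replicate block, a 1.5-fold null and each library left out.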

Additional observations from a re-analysis of the deposited data

How the results depend on the processing

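Of 134 alternative fits of single annexins, 131 kept the direction and the side of the threshold of the main result, and none reversed. Many of these directions were fixed in advance. Changes of the variance model, filter, block or null leave the fold change as it was. For the 8 annexins whose groups did not overlap, leaving out a library cannot reverse it. The other 3 fits no longer passed, all in the test against a 1.5-fold change (ANXA2 at 0.64, ANXA5 at 0.45 and ANXA11 at -0.81 on the log2 scale). By construction that test asks for a larger change. That test called 5 of 9 annexins, against 8, and 4357 of 11694 genes, against 7920. It called 1 receptor and plasmin gene, against 3, and 2 phospholipase A2 genes, against 6. A mean of at least 5 FPKM left fewer genes to test and called 4973 of 7396 genes, 2 of 4 scramblases and flippases and 3 of 4 phospholipase A2 genes, and ANXA8 was not tested under it. With no filter 6 receptor and plasmin genes were called.

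With each library left out in turn, on the same tested genes, 6675 to 9442 genes were called, and 8 annexins each time. The highest count, 80.7% of tested genes, came without sensitive replicate 3, the distant one. The other omissions gave 57.1% to 67.3%, against 67.7% with all 6 libraries. The log2 fold change of ANXA1 ranged from 6.09 to 6.37, of ANXA3 from 4.53 to 4.61, of ANXA4 from -1.78 to -1.65 and of ANXA7 from 0.09 to 0.16. The difference in the annexin sum, 539 FPKM, ranged from 515 to 568 FPKM. The group with a library left out kept 2 libraries.

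The replicate numbers are shared between the groups. Correlations of the deviations of same-numbered libraries were -0.42, 0.07 and -0.23, and those of the other pairs ran from -0.15 to 0.35. With 3 libraries per group, such correlations cannot decide whether same-numbered libraries were paired, and the labels do not say. With the replicate block 7193 genes and 8 annexins were called. Read depth limits ANXA8, ANXA8L1 and the resistant ANXA9 values most.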
